A study of Mus musculus with 8 samples.

Results

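The genes described here carry the mouse symbol Zfp followed by a number, a naming series that gathers zinc finger proteins, most of them of the C2H2 type. They were chosen by symbol from the platform annotation, with Zfp36 left out because it is an RNA-binding protein of another zinc finger class. The array held 258 such genes on 352 probes, and 141 of them had a probe above background on at least 2 arrays, which were taken as the members, 1 probe per gene. These 141 are part of the 9340 genes tested. The share of the series above background was 54.7%, against 51.0% of all genes on the array. At the edge of the rule, 5 members were above background on 2 arrays, with a median of 6.26 for their highest log2 level, while 12 genes of the series that reached 1 array and were left out had a median of 6.29. A further 105 genes of the series were above background on no array.

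Messenger RNA was measured on 8 one-colour bead arrays in mouse embryonic fibroblasts, connective tissue cells grown from embryos, all of the C57BL/6J background. The 4 groups of 2 arrays were staggerer cells after 12 h of doxorubicin, staggerer cells left untreated, wild type cells after 12 h of doxorubicin and wild type cells left untreated. Staggerer (Sg) is a mouse mutation in Rora, which encodes the nuclear receptor RORα, and doxorubicin is a drug that traps topoisomerase II on DNA and so leaves double-strand breaks. The design asks how the loss of RORα alters expression in resting and in DNA-damaged cells. The labels give no dose and do not say how many embryos stand behind a genotype or whether the arrays of a group are separate cultures. The p-values therefore rest on array-to-array spread, possibly technical, and genotype cannot be told apart from cell isolate.

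C2H2 zinc finger proteins are a large class of DNA-binding factors in mammals, in which each finger reads a few bases and arrays of fingers read long sites. Many carry a KRAB domain, through which they recruit Trim28 (KAP1) and, with it, the histone methyltransferase Setdb1 and heterochromatin proteins, so that the bound DNA is silenced; transposable elements are a main target. Many of their genes lie in clusters of related copies, and their messenger RNAs are as a group present at low levels.

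The promoters of 5 members that stand for the patterns below were taken from RefSeq (build GRCm38.p6), each from 250 bases before to 50 after the gene's start and written 5′ to 3′ on the gene's strand. Zfp212 and Zfp282, which lie near each other on chromosome 6, fell in both genotypes, Zfp296 and Zfp365 rose in both, and Zfp64 moved in opposite directions. Zfp212 lies at chr6:47920318-47920617 (plus strand), Zfp282 at chr6:47877305-47877604 (plus), Zfp296 at chr7:19577037-19577336 (plus), Zfp365 at chr10:67912613-67912912 (minus) and Zfp64 at chr2:168955538-168955837 (minus). Capitals mark matches, on either strand, to the promoter motifs whose letters are spelled out with their shares in the next paragraph. No match overlapped another in the 5 windows.
Zfp212: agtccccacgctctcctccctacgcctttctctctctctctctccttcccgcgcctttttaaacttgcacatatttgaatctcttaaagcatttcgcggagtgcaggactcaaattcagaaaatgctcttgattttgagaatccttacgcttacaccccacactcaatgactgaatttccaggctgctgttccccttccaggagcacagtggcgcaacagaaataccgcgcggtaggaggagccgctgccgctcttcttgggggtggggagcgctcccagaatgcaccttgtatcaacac
Zfp282: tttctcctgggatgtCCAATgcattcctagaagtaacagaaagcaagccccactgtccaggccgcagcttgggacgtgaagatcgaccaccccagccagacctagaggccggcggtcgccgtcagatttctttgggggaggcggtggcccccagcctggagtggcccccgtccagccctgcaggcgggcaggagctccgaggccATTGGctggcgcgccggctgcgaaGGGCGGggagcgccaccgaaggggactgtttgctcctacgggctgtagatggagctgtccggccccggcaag
Zfp296: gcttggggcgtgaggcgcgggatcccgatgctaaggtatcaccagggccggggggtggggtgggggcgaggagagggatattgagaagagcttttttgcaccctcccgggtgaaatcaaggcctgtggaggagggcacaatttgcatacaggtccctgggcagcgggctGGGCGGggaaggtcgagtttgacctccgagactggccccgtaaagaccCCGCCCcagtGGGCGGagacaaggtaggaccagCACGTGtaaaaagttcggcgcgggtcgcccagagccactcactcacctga
Zfp365: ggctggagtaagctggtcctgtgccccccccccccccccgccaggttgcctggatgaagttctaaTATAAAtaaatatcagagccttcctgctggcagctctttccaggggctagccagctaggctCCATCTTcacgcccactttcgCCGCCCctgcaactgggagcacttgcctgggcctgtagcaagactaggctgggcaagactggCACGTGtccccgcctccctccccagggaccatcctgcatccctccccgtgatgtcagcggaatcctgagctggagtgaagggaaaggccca
Zfp64: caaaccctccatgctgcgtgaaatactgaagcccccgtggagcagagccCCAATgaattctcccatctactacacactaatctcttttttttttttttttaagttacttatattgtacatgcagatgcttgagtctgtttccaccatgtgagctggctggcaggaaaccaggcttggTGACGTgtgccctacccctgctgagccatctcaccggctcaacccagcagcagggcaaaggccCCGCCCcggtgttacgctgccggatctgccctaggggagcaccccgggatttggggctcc
The Zfp212 window held none of these motifs. Zfp282 had a GC box and a CCAAT box on each strand, Zfp296 had 3 GC boxes and an E-box, Zfp365 had a TATA box at bases 66 to 71 with a GC box, a YY1 element and an E-box, and Zfp64 had a GC box, a CCAAT box and a cyclic AMP element core. A match is a description of letters, and these windows show no binding.

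Over the series, 115 of the 141 members had a promoter in the table, in 143 windows. A CCAAT box, searched like the rest on both strands, was present in 46.9% of these windows, against 37.4% of 32851 promoter windows of all genes and 37.7% of those of the tested genes. The NRF1 core (GCATGCG) was in 10.5% of the members' windows, against 3.58% of all promoters and 6.29% of tested genes' promoters, and the YY1 element (AAGATGG) in 11.9%, against 6.34% of all and 7.21% of tested genes' promoters. The GC box (GGGCGG) was less frequent among members (48.3%) than among tested genes (63.3%), though above the 35.7% of all promoters. An ETS element (CCGGAAG) stood in 16.1% of members' windows, 8.86% of all and 16.9% of tested genes' promoters, and a TATA box (TATAAA) in 6.99%, 13.6% and 7.37%, in that order. The cyclic AMP element core (TGACGT) was in 10.5% of members' windows, 7.51% of all and 11.2% of tested genes' promoters, and the E-box (CACGTG) in 7.69%, 7.15% and 9.95%, in that order. The core of the element that ROR receptors read (TAGGTCA) was found in 3 members' windows (2.10%), against 2.61% of all promoters and 1.79% of those of tested genes. The p53 element, searched as its consensus, was in 0 members' windows, in 24 of all promoters (0.0731%) and in 5 of the 9087 windows of tested genes (0.055%). Members' windows held a median of 17 CpG pairs, against 20 for the tested genes and 7 for all promoters. Among the windows of members that fell in doxorubicin-treated staggerer cells, 50.5% held a CCAAT box, and among those of the other members 40%. No test was run on these shares.

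The members were low genes. Their mean log2 level over the 4 untreated arrays had a median of 7.57, against 8.76 for all genes tested, and their lower and upper quartiles were 6.62 and 8.94. A log2 level here is the log2 of the background-corrected, quantile-normalised intensity of 1 probe, and the lowest level that counted as above background was 5.92 to 6.13 on 6 arrays and 6.70 and 6.86 on the staggerer doxorubicin arrays. The 2992 other genes whose untreated level lay between the members' quartiles serve below as the genes of like level, beside the 71 members in that range.

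The arrays of doxorubicin-treated staggerer cells were unlike the other 6. They had 9576 and 9246 probes above background, against 10942 to 11572 on the others, and a median background-corrected log2 intensity of 7.64 and 7.55, against 8.61 to 9.11, before normalization. Quantile normalization forces all arrays to 1 distribution, and the part of this gap in the results was not tested beyond the alternatives below. Replicate arrays correlated at 0.983 in the staggerer doxorubicin group and at 0.994 to 0.995 in the other groups. Rora, on a probe whose place relative to the staggerer deletion was not checked, had mean levels of 6.41 in staggerer doxorubicin, 6.57 in staggerer untreated, 7.96 in wild type doxorubicin and 7.90 in wild type untreated cells. Of 12 fibroblast markers 11 were tested, 9 of them above background on all arrays, and Fn1 was not among the genes tested. Their summed linear level was 68413.5 and 70211.1 in staggerer doxorubicin, 61802.9 and 62498.1 in staggerer untreated, 55444.5 and 57884.9 in wild type doxorubicin and 68446.7 and 67778.2 in wild type untreated arrays. Markers of 4 other cell types were sparse among the genes tested: Cd68, Csf1r, Tyrobp and Ptprc (macrophage), Epcam, Cdh1 and Esrp1 (epithelium), Pecam1, Cdh5, Kdr, Tek and Tie1 (endothelium), and Tubb3, Sox2, Dcx and Nefl (neurons) were not tested. A marker with no probe under its symbol was counted so too, so the untested markers, Fn1 included, cannot be called unexpressed. The 4 tested macrophage markers summed to 2559.53 and 2676.79 in staggerer doxorubicin and 1265.51 and 1289.5 in staggerer untreated arrays, and to 5385.65 and 5888.79 in wild type doxorubicin and 5144.13 and 5313.94 in wild type untreated arrays. The 3 tested epithelial markers summed to 311 and 283 in staggerer doxorubicin, 148 and 153 in staggerer untreated, 1240 and 1237 in wild type doxorubicin and 419 and 372 in wild type untreated arrays. Their sum was higher after doxorubicin in both genotypes, but a sum mostly follows the brightest gene. Of the 3, 2 were called higher and 0 lower in staggerer cells, and 1 higher and 1 lower in wild type cells. The 1 tested endothelial marker had 1644 and 1694 in staggerer doxorubicin and 619 and 804 in staggerer untreated arrays, and 876 and 1056 in wild type doxorubicin and 906 and 981 in wild type untreated arrays. The 2 neural markers summed to 2154 and 1414, 1009 and 894, 573 and 497, and 829 and 833 in the 4 groups in the same order. The part of these lists in the results was not tested, and in bulk RNA fewer cells that express a gene and less RNA per cell cannot be told apart.

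In staggerer fibroblasts, doxorubicin lowered most of the Zfp series. Of 141 members 98 fell and 9 rose, and 34 did not pass the test (limma, adjusted p under 0.05). Over all genes tested, 33.2% were called lower and 31.9% higher. The members' median log2 difference was -1.13, against 0.03 for all genes, and 76 members were at least 2-fold lower by the fitted value, against 19.6% of all genes. Some members had to be low to be counted so: 71 were above background on neither staggerer doxorubicin array, 54 of them on both staggerer untreated arrays (882 of the 9340 genes tested), so their fitted fold depends on background values. With such members set at the detection floor as a bound, and members below background in both groups at 0, the median was -0.51. On the individual arrays, 67 and 58 members were above background in staggerer doxorubicin cells, against 131 and 124 in staggerer untreated cells, and the members' median level was 6.60 and 6.45, against 7.63 and 7.56. Of the members of like level, 39.4% and 29.6% were above background on the staggerer doxorubicin arrays, against 100% on both staggerer untreated arrays. Of the other genes of like level, 77.2% and 73.8% were, against 99.2% and 98.9%, so detection was lost beyond the series too. On the untreated side these shares were set in advance. The range was chosen on the untreated level and lies above the detection floor of the untreated arrays. The genes of like level had medians of 7.82 and 7.81 on the staggerer doxorubicin arrays and of 7.81 and 7.80 on the staggerer untreated arrays. The groups of arrays therefore did not overlap in the members' median. The genes of like level kept their median, but quantile normalization gives every array 1 distribution and so tends to hold such a median in place. Without normalization the median difference in staggerer cells was -0.85 for the other genes of like level and -1.96 for the members of like level.

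**Figure D1:**
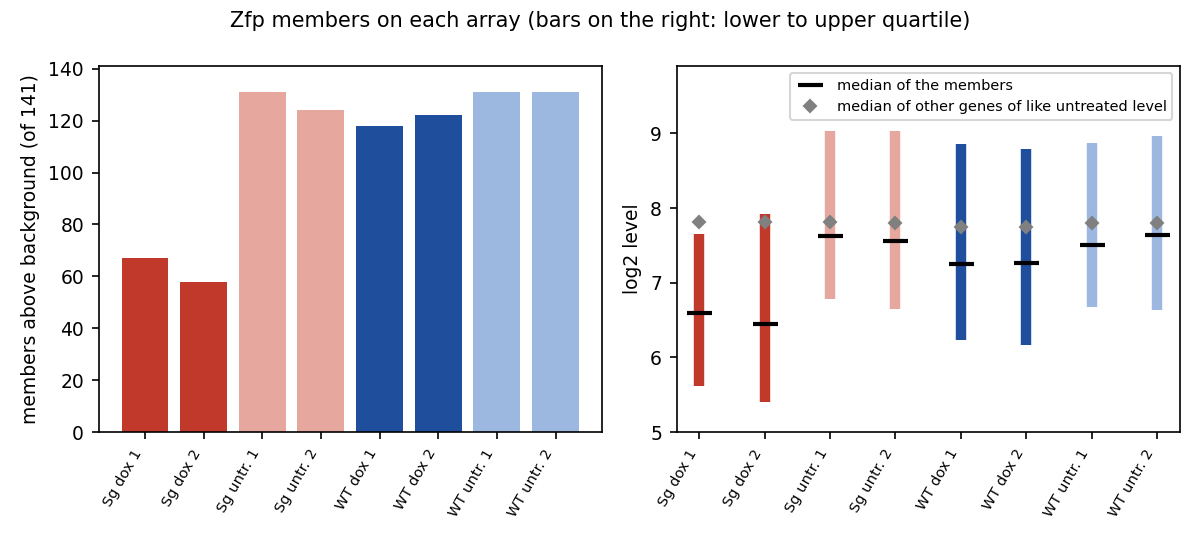
Number of Zfp members above background on each array (left, of 141) and their log2 level on each array (right: bar, lower to upper quartile; black line, median; grey diamond, median of other genes of like untreated level); Sg is staggerer, dox is doxorubicin for 12 h, untr. is untreated. The 2 staggerer doxorubicin arrays had 67 and 58 members above background, and the other 6 had 118 to 131. Of the other genes of like untreated level, 77.2% and 73.8% were above background on the staggerer doxorubicin arrays, and 94.3% to 99.5% on the other 6.

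Genes of like untreated level were less often lower. Of the 71 members in that range 52 fell in staggerer cells (73.2%) and 4 rose, against 32% lower and 36.1% higher among the 2992 other genes. The medians were -1.44 for the members (-0.62 with bounds) and 0.06 for the others. Across 5 equal classes of the untreated level of all genes, from low to high, 17 of 37, 35 of 47, 25 of 31, 18 of 22 and 3 of 4 members fell, against 15.7%, 30.3%, 37.0%, 43.0% and 37.0% of the other genes. Among the 52 members above background on all 8 arrays, for which no value rests on background, 34 fell and 5 rose, with a median of -0.81, while 31.1% of 6420 other such genes were lower and 36.9% higher, with a median of 0.11. Only 18 of these members were of like level, and there 6 fell and 4 rose (median -0.21). Among the 2006 other such genes of like level 14.9% were lower and 50.6% higher (median 0.48). Requiring signal on all arrays leaves out genes that fell below background.

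**Figure D2:**
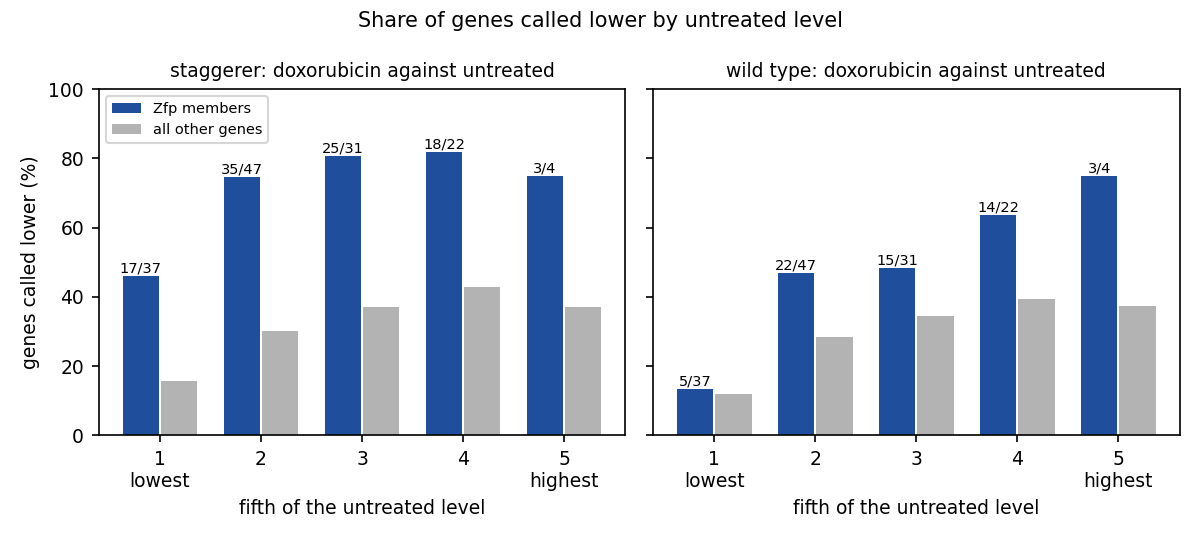
Share of genes called lower after doxorubicin (%, vertical axis) in staggerer (left) and wild type cells (right), by class of the untreated level from 1 (lowest) to 5 (highest), for Zfp members (blue, with the count called of the count in the class) and all other genes (grey). In staggerer cells 45.9% to 81.8% of the members of a class were called lower, against 15.7% to 43.0% of the other genes.

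Among the members with the largest fitted falls in staggerer cells, Zfp637 stayed above background everywhere. It had levels of 6.88 and 7.90 in staggerer doxorubicin and 10.73 and 10.71 in staggerer untreated arrays, a log2 difference of -3.33 ± 0.29 (SE, adjusted p = 6.46e-05). In wild type cells it had 9.31 and 9.12 after doxorubicin and 10.80 and 10.72 untreated, a difference of -1.55 ± 0.29 (adjusted p = 0.00281). Its groups did not overlap in either genotype, and its 2 staggerer doxorubicin arrays lay further apart than any other pair of its arrays. Zfp292, whose human counterpart is mutated in a form of intellectual disability, was below background on both staggerer doxorubicin arrays (5.89 and 5.41), against 9.27 and 9.09 untreated, and so was at least 5.29-fold lower (adjusted p = 1.13e-05). It had 8.40 and 8.54 in wild type doxorubicin and 9.43 and 9.50 in wild type untreated cells, a difference of -0.997 ± 0.18 (adjusted p = 0.00209). A second Zfp292 probe gave fitted differences of -2.29 in staggerer and -1.82 in wild type cells, so the 2 probes differ on how far the genotypes part.

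Zfp90, a KRAB protein, was at least 4.86-fold lower in staggerer cells, with 5.69 and 5.85 after doxorubicin, below background, and 8.93 and 9.19 untreated. It also had the largest fitted fall in wild type cells, with 6.10 and 6.18 after doxorubicin and 8.67 and 8.53 untreated (-2.45 ± 0.14, adjusted p = 1.23e-05). Zfp60, Zfp97 and Zfp41 likewise dropped below background on both staggerer doxorubicin arrays and were at least 2.98-fold, 2.00-fold and 2.52-fold lower. In wild type cells Zfp60 fell by 1.53 ± 0.18 and Zfp41 by 0.81 ± 0.18, while Zfp97 fell by 0.46 ± 0.15 (adjusted p = 0.0304). All 4 were above background on all wild type arrays.

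Of members above background on every array, 4 others with large falls were chosen after their values were seen. Zfp46 had 8.47 and 9.02 in staggerer doxorubicin and 11.56 and 11.46 in staggerer untreated arrays (-2.77 ± 0.19). Zfp212 had 7.93 and 8.06 against 10.72 and 10.77 (-2.75 ± 0.15), and Zfp282, whose human counterpart represses a retroviral long terminal repeat, had 7.19 and 7.70 against 9.78 and 9.87 (-2.39 ± 0.17). Zfp362 had 9.01 and 9.17 against 11.29 and 11.45 (-2.28 ± 0.12). The 4 also fell in wild type cells, with differences of -0.93 ± 0.19, -1.50 ± 0.15, -0.93 ± 0.17 and -0.90 ± 0.12 in the same order, with adjusted p from 0.000137 to 0.00395. The 2 dimmer Zfp212 probes gave -1.89 and 0.57 in staggerer cells. The promoters of Zfp212 and Zfp282 printed above share no motif of the search.

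**Figure D3:**
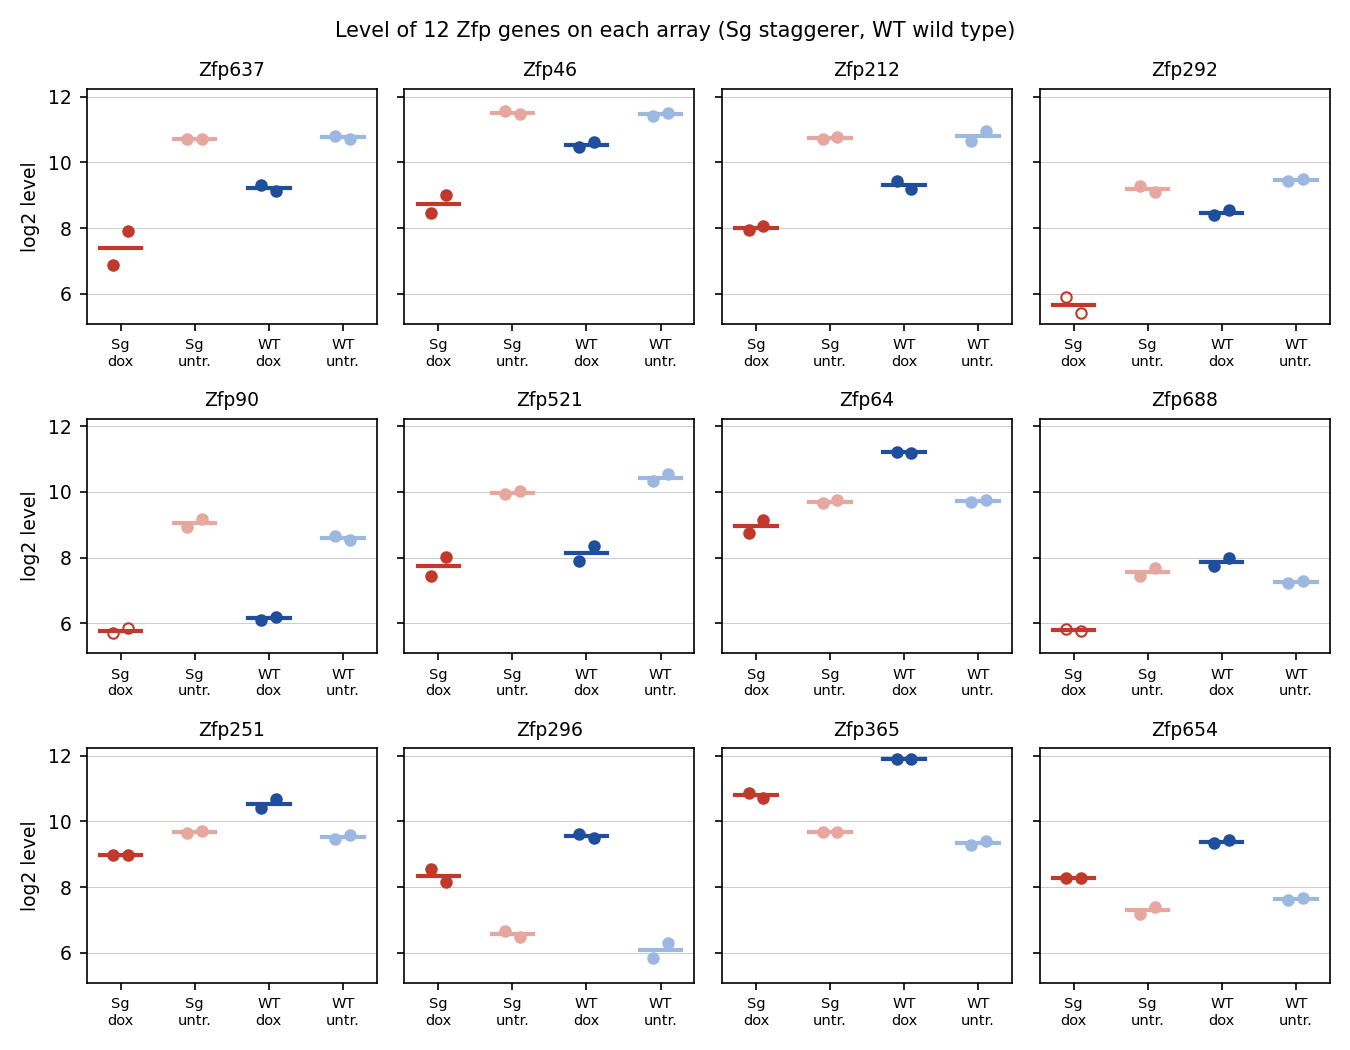
Log2 level of 12 Zfp genes on each array, in staggerer doxorubicin, staggerer untreated, wild type doxorubicin and wild type untreated cells; points are single arrays, lines group means, and open points mark a group below background on both arrays. Zfp637, Zfp46 and Zfp212 were lowest in staggerer doxorubicin cells, while Zfp64, Zfp688 and Zfp251 were highest in wild type doxorubicin cells and lowest in staggerer doxorubicin cells.

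In wild type fibroblasts, 59 members fell and 20 rose after doxorubicin, and 62 did not pass the test. Over all genes 30.5% were lower and 26.4% higher. The members' median was -0.44 (-0.34 with bounds), against -0.09 for all genes, and 26 members were at least 2-fold lower by the fitted value, against 12.1% of all genes. Members above background numbered 118 and 122 on the wild type doxorubicin arrays and 131 on each wild type untreated array, and the members' median level was 7.25 and 7.26, against 7.51 and 7.64. Of the members of like level, 85.9% and 88.7% were above background after doxorubicin, against 100% on both untreated arrays. Of the other genes of like level, 94.3% and 95.0% were, against 99.5% and 99.4%. The untreated shares were again set by the choice of the range. Among members of like level 33 of 71 fell (46.5%), against 30.1% of the other genes, with medians of -0.49 and -0.12. In the lowest of the 5 classes of level, 5 of 37 members fell, close to the 11.9% of the other genes, and in the next 3 classes 22 of 47, 15 of 31 and 14 of 22 fell, against 28.3%, 34.5% and 39.4%. Of the 52 members above background on all arrays 23 fell and 14 rose (median -0.16), against 33.3% lower and 26.5% higher among the other such genes. Within the like level range that left 18 members, of which 3 fell (16.7%) and 8 rose (44.4%), against 25.3% lower and 33.4% higher among the 2006 other genes, so that in wild type cells the lower share of the members did not exceed that of genes of like level there.

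Besides Zfp90, the largest falls in wild type cells by the fitted value were those of Zfp521, Zfp763, Zfp810, Zfp472 and Zfp101, and these 5 were called lower in staggerer cells too. Zfp521, which holds back adipocyte commitment in mesenchymal progenitors, had 7.43 and 8.03 in staggerer doxorubicin and 9.93 and 10.02 in staggerer untreated arrays (-2.25 ± 0.23, adjusted p = 0.000123). It had 7.90 and 8.35 in wild type doxorubicin and 10.33 and 10.54 in wild type untreated arrays (-2.31 ± 0.23, adjusted p = 0.000129). The difference between the 2 effects was 0.06 ± 0.32 (adjusted p = 0.881), which does not show that they are equal. Zfp810 and Zfp472 were below background on all 4 doxorubicin arrays, being at least 1.68-fold and 1.26-fold lower in staggerer and at least 2.49-fold and 2.62-fold lower in wild type cells. Zfp763 was at least 2.31-fold lower in staggerer cells and differed by -2.19 ± 0.29 in wild type cells, and Zfp101 was at least 1.50-fold lower in staggerer and differed by -1.67 ± 0.24 in wild type cells. Zfp763 and Zfp101 were each above background on 1 of the 2 wild type doxorubicin arrays.

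A small group rose in both genotypes. Zfp296, which in mouse binds Klf4 and aids reprogramming to pluripotency, had 8.54 and 8.15 in staggerer doxorubicin and 6.66 and 6.49 in staggerer untreated arrays, a rise of 1.77 ± 0.19 (adjusted p = 0.000178). In wild type cells it had 9.61 and 9.49 after doxorubicin and 5.85 and 6.30 untreated, a rise of 3.48 ± 0.19 (adjusted p = 1.18e-05). A second probe, above background on only 4 arrays, gave 1.71 and 4.35, so both probes showed the larger rise in wild type cells. On the first probe the 5.85 lay under the lowest level above background on its array (6.06). The sizes of the Zfp296 rises, and of their difference below, therefore rest in part on background values. Zfp365, whose human counterpart helps stalled replication forks to recover, had 10.86 and 10.73 in staggerer doxorubicin and 9.67 on both staggerer untreated arrays (1.12 ± 0.12, adjusted p = 0.000138), and 11.91 and 11.89 in wild type doxorubicin against 9.28 and 9.40 in wild type untreated arrays (2.56 ± 0.12, adjusted p = 5.62e-06). The rise of both was smaller in staggerer cells by the test of the difference (-1.70 ± 0.27, adjusted p = 0.00153, and -1.44 ± 0.16, adjusted p = 0.000389). Neither promoter printed above holds the p53 consensus that was searched. That pattern was in only 0.055% of tested genes' promoter windows, so its absence from 2 windows tells little, and p53 control was not tested.

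Zfp654 rose by 0.99 ± 0.12 in staggerer and 1.74 ± 0.12 in wild type cells, and Zfp219, a partner of Sox9 in mouse chondrocytes, by 1.12 ± 0.12 and 0.87 ± 0.12. Without normalization between arrays the staggerer differences of Zfp365, Zfp219 and Zfp654 were 0.41, 0.18 and 0.02 and did not pass. Zfp185, whose human counterpart is a LIM-domain protein of the actin cytoskeleton rather than a C2H2 factor, was at least 1.36-fold higher in wild type doxorubicin cells (adjusted p = 0.0226). It was below background on all staggerer arrays, so no fold is given there. Zfp566 rose by 1.08 ± 0.24 in staggerer cells (7.22 and 6.83, against 6.22 and 5.67 untreated), with 1 array of each group above background. A further 3 members were among the largest fitted rises of wild type cells. Zfp64, discussed below, rose by 1.49, Zfp791 was at least 1.05-fold higher and below background in the other 3 groups, and Zfp597, whose human counterpart is imprinted, rose by 1.37 ± 0.16, against -0.30 ± 0.16 in staggerer cells (adjusted p = 0.139).

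The 2 genotypes shared much of the fall. Of the members, 52 fell in both, which is 53.1% of those that fell in staggerer and 88.1% of those that fell in wild type cells, and 14.3% of all genes and 12.5% of those of like level fell in both. In 43 of the 52 the fitted fall was larger in staggerer cells. The same count was not made for all genes that fell in both, so it has no reference. It also includes members below background on the staggerer doxorubicin arrays, whose fitted fall is no bound. Another 46 fell in staggerer cells without passing as lower in wild type cells, as did 18.9% of all genes, 7 the other way (16.2% of all genes), 6 rose in both (11.8% of all genes, 13.1% of those of like level) and 22 passed in neither genotype (16.6% of all genes). A group of 9 members rose in wild type and fell in staggerer cells, as did 5.31% of all genes and 5.18% of the genes of like level, and 0 members did the reverse, as did 7.16% of all genes and 8.82% of the genes of like level. The 2 doxorubicin effects use separate arrays but 1 shared estimate of spread.

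**Figure D4:**
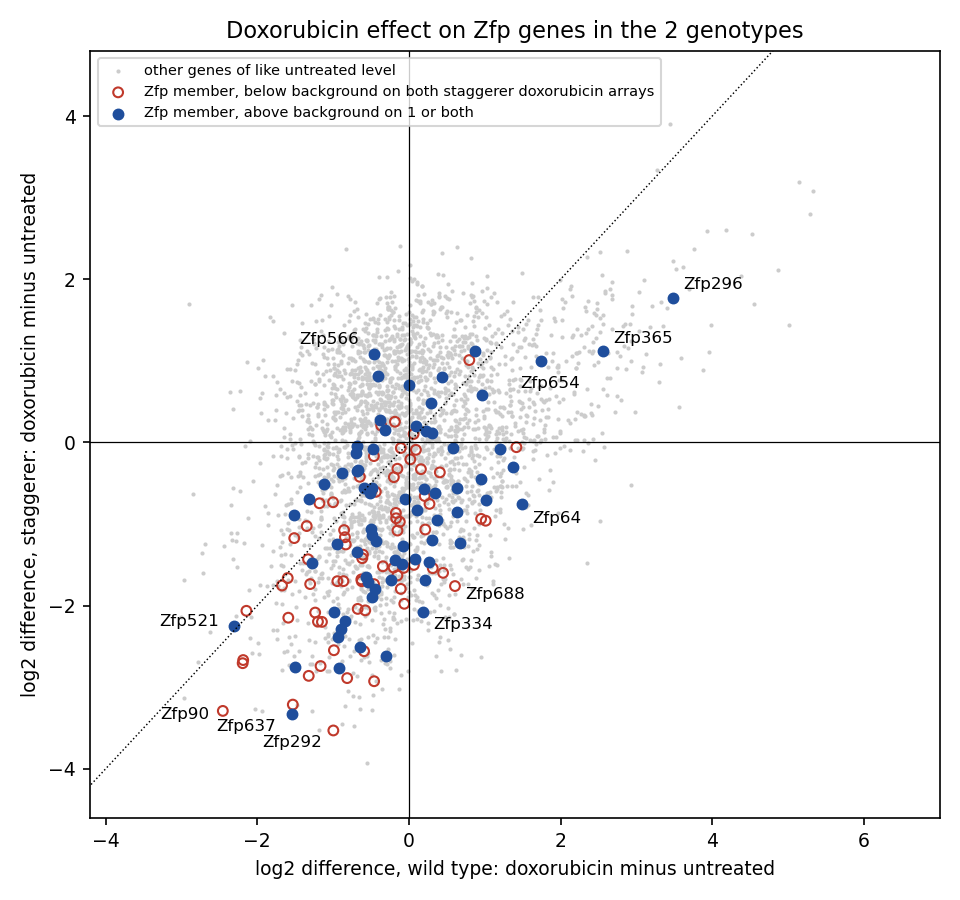
Doxorubicin minus untreated log2 difference of each Zfp member in wild type (horizontal) and staggerer cells (vertical), with members below background on both staggerer doxorubicin arrays as open red circles, other members as blue dots and other genes of like untreated level in grey; the dotted line marks equal effects. The difference was negative for 122 of 141 members in staggerer cells (49.0% of all genes) and for 96 in wild type cells (54.3% of all genes). Below the dotted line, where the staggerer effect is the more negative, lie 77.3% of the members, against 53.4% of all genes.

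The test of the difference between the effects found 77 members more negative in staggerer cells and 4 more positive, where 32.5% of all genes were more negative and 26.6% more positive. The median was -0.84 for the members and -0.11 for all genes. Among the members above background on all arrays 32 of 52 were more negative and 3 more positive, against 30.3% and 32.5% of other such genes. These fitted differences include members that reached background, for which their size is no bound.

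The 9 members with opposite effects were Zfp64, Zfp160, Zfp251, Zfp330, Zfp398, Zfp410, Zfp598, Zfp688 and, beyond the 8 that the naming rule allowed, Zfp263. Zfp64, which in human leukaemia drives expression of the MLL gene, had 8.75 and 9.15 in staggerer doxorubicin against 9.67 and 9.75 in staggerer untreated arrays (-0.76 ± 0.15, adjusted p = 0.00311), and 11.23 and 11.19 in wild type doxorubicin against 9.69 and 9.75 in wild type untreated arrays (1.49 ± 0.15, adjusted p = 0.000145). The difference of the effects was -2.25 ± 0.21 (adjusted p = 0.000226), and 2 further probes gave -0.76 and -0.84 in staggerer and 1.27 and 0.87 in wild type cells. On the brightest probe the untreated arrays of both genotypes lay between the treated arrays, and all 3 probes gave opposite signs in the 2 genotypes. Zfp251 had 8.97 on both staggerer doxorubicin arrays against 9.64 and 9.72 in staggerer untreated, and 10.42 and 10.67 in wild type doxorubicin against 9.46 and 9.60 in wild type untreated arrays. Zfp160 differed by -1.23 ± 0.16 in staggerer and 0.67 ± 0.16 in wild type cells.

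Zfp598 is the ubiquitin ligase that marks collided ribosomes. It was below background on both staggerer doxorubicin arrays (5.51 and 5.13), against 6.13 and 6.43 untreated, too near the floor for a fold, and was at least 1.48-fold higher in wild type doxorubicin than in wild type untreated cells. Zfp688 was at least 1.72-fold lower in staggerer doxorubicin cells and rose by 0.61 ± 0.14 in wild type cells. Zfp398 was below background on all staggerer arrays and rose by 0.95 ± 0.15 in wild type cells, so its staggerer value is a background reading. Zfp330, a nucleolar protein, differed by -0.85 ± 0.12 in staggerer and 0.64 ± 0.12 in wild type cells, and Zfp263 by -0.56 ± 0.16 and 0.64 ± 0.16. Without normalization between arrays the wild type rises of Zfp688, Zfp160, Zfp330 and Zfp410 did not pass, with differences of 0.33, 0.35, 0.27 and 0.05.

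Zfp410, in human cells a dedicated activator of Chd4, differed by -0.96 ± 0.12 in staggerer and 0.37 ± 0.12 in wild type cells. Its 2 other probes gave 0.38 and -0.71 in staggerer and 0.12 and 0.02 in wild type cells. Chd4 itself, a nucleosome remodeller, differed by 0.05 ± 0.12 in staggerer (adjusted p = 0.738) and by -0.49 ± 0.12 in wild type cells (adjusted p = 0.0105). The probes of Zfp410 therefore do not settle its direction in staggerer cells. Its wild type call was also lost without the detection filter (adjusted p = 0.0781) and with the mean of its probes (0.17, adjusted p = 0.388).

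Members with the most negative fitted difference of effects, after Zfp292, Zfp97 and Zfp688, were Zfp87 (-2.31 ± 0.41), Zfp334 (-2.26 ± 0.18) and Zfp64. Zfp87 fell by 2.61 ± 0.29 in staggerer cells and differed by -0.30 ± 0.29 in wild type cells (adjusted p = 0.407). Zfp334 fell by 2.08 ± 0.12 in staggerer cells, but a dimmer probe, above background on 2 arrays, gave 0.72. The 4 more positive members were Zfp566 (1.54 ± 0.34), Zfp367 (0.70 ± 0.22), Zfp326 (0.67 ± 0.18) and Zfp277 (0.62 ± 0.19). Zfp326, part of a complex that couples transcription to splicing, had 9.86 and 10.11 in staggerer doxorubicin and 9.74 and 9.67 in staggerer untreated arrays, but its 2 other probes gave -0.93 and -0.43 in staggerer and 0.21 and 0.13 in wild type cells, the opposite of the brightest probe. Zfp277, which in mouse fibroblasts helps to keep the Cdkn2a locus silent, fell by 0.89 ± 0.13 in staggerer and by 1.51 ± 0.13 in wild type cells, against -0.08 and -0.19 on a second probe.

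Untreated staggerer and wild type cells differed little in these genes. One member was lower in staggerer cells, Zfp532, and 0 were higher, where 6.26% of all genes were lower and 6.69% higher, and the members' median was -0.04, against -0.01 for all genes. Zfp532, a relative of the chromatin-reader partners Zfp592 and Zfp687, had 9.26 and 9.17 in staggerer untreated and 9.70 and 9.78 in wild type untreated arrays (-0.53 ± 0.12, adjusted p = 0.0269), with groups that did not overlap, and a second probe gave -0.28. The call was lost without the detection filter (adjusted p = 0.0707), with the mean of its probes (adjusted p = 0.0773) and when any 1 of 6 arrays was left out (either array of each untreated group or of wild type doxorubicin). It then fell by 1.69 ± 0.12 in staggerer cells with doxorubicin, while it differed by -0.23 ± 0.12 in wild type cells (adjusted p = 0.131). Of the members of like level 0 of 71 were lower, against 6.78% of the other genes, and 0 of the 18 above background on all arrays, against 6.33%.

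In doxorubicin-treated cells, 87 members were lower and 10 higher in staggerer than in wild type cells, where 39.9% of all genes were lower and 32.6% higher. The median was -0.86 for the members and -0.14 for all genes. With members below background at their bound, the members' median was -0.08. In the like level range 43 of 71 were lower, against 39% of the other genes. Of the 52 above background on all arrays 35 were lower and 6 higher, with a median of -1.06, against 36.2% lower and 39.2% higher among other such genes, with a median of 0.05. Among the 6 members that the fitted values put lowest, the gap was measured in both groups for Zfp64 (-2.26 ± 0.15), Zfp87 (-2.25 ± 0.29, with 1 staggerer doxorubicin array above background) and Zfp623 (-2.19 ± 0.13). The others were below background in staggerer doxorubicin cells, and their bounds were at least 3.22-fold lower for Zfp292, 2.06-fold for Zfp41 and 1.60-fold for Zfp97. Zfp623 had 7.69 and 7.68 in staggerer doxorubicin and 9.88 and 9.87 in wild type doxorubicin arrays. Higher in staggerer were Zfp566 (at least 2.10-fold), Zfp609 (1.19 ± 0.38, adjusted p = 0.0226), Zfp622 (0.93 ± 0.19), Zfp653 (0.78 ± 0.18), Zfp91 (0.76 ± 0.22) and Zfp513 (0.64 ± 0.22). Without normalization between arrays none of these 6 passed: Zfp566, Zfp609 and Zfp622 gave 0.53, 0.26 and 0.07, and Zfp653, Zfp91 and Zfp513 turned to -0.25, -0.22 and -0.42. With only the arrays compared Zfp609 and Zfp91 did not pass either (adjusted p = 0.0635 and 0.0534), and Zfp513 did not pass without the detection filter (adjusted p = 0.0532).

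A list of 43 genes of the series with roles described in mouse or human was drawn up, and 24 of them were members. Of these 14 fell and 1 rose in staggerer cells (33.2% and 31.9% of all genes), and 12 fell and 3 rose in wild type cells (30.5% and 26.4% of all genes). Among those that act in fat and bone cell fate, Zfp467, which favours adipocytes over osteoblasts, had 6.07 and 6.96 in staggerer doxorubicin and 7.21 and 7.22 in staggerer untreated arrays (-0.70 ± 0.26, adjusted p = 0.0488), and fell by 1.31 ± 0.26 in wild type cells. Zfp638, a partner of C/EBP factors in adipogenesis that also silences retroviral DNA, was at least 3.33-fold lower in staggerer doxorubicin cells and fell by 1.15 ± 0.28 in wild type cells. With Zfp521, these 3 were called lower in both genotypes, as were 36.9% of all members and 14.3% of all genes. Their described roles do not run in 1 direction, and a link to cell fate was not tested. The staggerer call of Zfp467 was lost with median centring (-0.36, adjusted p = 0.14), without the detection filter (adjusted p = 0.083) and with only the arrays compared (adjusted p = 0.11).

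Of members that work on chromatin, Zfp809, which silences retroviruses in mouse through Trim28, fell by 1.21 ± 0.26 in staggerer cells and differed by -0.43 ± 0.26 in wild type cells (adjusted p = 0.193). Zfp644, which guides the histone methyltransferases Ehmt1 and Ehmt2, had 6.90 and 7.48 in staggerer doxorubicin against 9.82 and 9.57 in staggerer untreated arrays (-2.51 ± 0.20), and fell by 0.64 ± 0.20 in wild type cells (adjusted p = 0.0268). Its wild type call was lost without the detection filter (adjusted p = 0.0516). Zfp335, a cofactor of a histone methyltransferase complex linked to microcephaly, was below background on both staggerer doxorubicin arrays, too near the floor for a fold and with its call lost under median centring (-0.09), and differed by -0.17 ± 0.19 in wild type cells. Zfp281, a repressor of Nanog in mouse stem cells, fell by 0.62 ± 0.13 in staggerer cells and differed by 0.34 ± 0.13 in wild type cells (adjusted p = 0.0509). Zfp148, which binds GC-rich promoters, differed by -0.38 ± 0.28 in staggerer and fell by 0.88 ± 0.28 in wild type cells. Zfp592 (0.14 ± 0.20 and 0.23 ± 0.20) and Zfp687 (-0.07 ± 0.23 and -0.11 ± 0.23), zinc finger partners of the reader Zmynd8, did not pass the test in either genotype.

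Among members that act on RNA, ribosomes or proteins, Zfp622, a factor of large ribosomal subunit assembly, rose by 0.80 ± 0.19 in staggerer cells and differed by 0.44 ± 0.19 in wild type cells (adjusted p = 0.0809). Without normalization between arrays the staggerer difference of Zfp622 was 0.10 and did not pass (adjusted p = 0.735). Zfp346, which binds double-stranded RNA, differed by -0.09 ± 0.21 in staggerer and rose by 1.20 ± 0.21 in wild type cells, where a second probe gave 0.14. Zfp318, needed for IgD transcripts in B cells, fell, with differences of -2.19 ± 0.12 in staggerer and -0.84 ± 0.12 in wild type cells. Zfp451, a SUMO ligase, fell by 0.56 ± 0.16 in staggerer cells and differed by 0.20 ± 0.16 in wild type cells (adjusted p = 0.31). Its staggerer call was lost with only the arrays compared (adjusted p = 0.0502). Zfp207, which supports Bub3 and spindle assembly, fell by 0.56 ± 0.12 in staggerer and by 0.59 ± 0.12 in wild type cells, the difference being 0.04 ± 0.17, and Zfp639 fell in both, with differences of -0.56 ± 0.15 and -0.48 ± 0.15, though neither passed with median centring (adjusted p = 0.0597 and 0.0563). The wild type call of Zfp639 was also lost without the detection filter (adjusted p = 0.0581). Zfp91, a ubiquitin ligase, and Zfp131, a BTB-domain factor, differed by -0.05 ± 0.22 and -0.12 ± 0.20 in staggerer cells and fell in wild type cells, with differences of -0.68 ± 0.22 and -0.70 ± 0.20. The wild type call of Zfp91 was lost without the detection filter (adjusted p = 0.0605). Zfp609 (0.81 ± 0.38 and -0.40 ± 0.38) and Zfp106, an RNA-binding protein of the neuromuscular system (-0.07 ± 0.23 and -0.48 ± 0.23), passed in neither genotype.

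Other C2H2 families were mostly lower in staggerer cells, while in wild type cells their shares lay near those of all genes. Of 33 tested genes of other C2H2 families, 23 fell and 1 rose in staggerer cells (33.2% and 31.9% of all genes), with a median of -1.54 (-0.63 with bounds), and 12 fell and 7 rose in wild type cells (30.5% and 26.4% of all genes), with a median of -0.24. In the Zbtb family 11 of 16 fell in staggerer cells, and 4 fell and 4 rose in wild type cells, while 8 of 9 Zscan and Zkscan genes fell in staggerer and 4 in wild type cells. Zbtb7a, a repressor of many lineage genes, fell by 2.84 in staggerer cells and differed by -0.08 in wild type cells. Of 8 genes whose Zfp symbol ends in a letter, 4 fell in each genotype. The difference of the effects was more negative in staggerer cells for 26 of the 33, where 32.5% of all genes were.

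The corepressor and heterochromatin list had 17 of 26 genes tested. In staggerer cells 10 fell and 3 rose, where 33.2% of all genes were lower and 31.9% higher, and in wild type cells 9 fell and 1 rose, where 30.5% were lower and 26.4% higher. The medians were -0.78 in staggerer and -0.49 in wild type cells. Trim28, the corepressor that KRAB domains bind, fell by 0.78 ± 0.15 in staggerer and by 0.76 ± 0.15 in wild type cells (adjusted p = 0.00254 and 0.00351), the difference being -0.02 (adjusted p = 0.942). Setdb1, the histone methyltransferase it recruits, fell by 0.95 ± 0.15 in staggerer cells and differed by -0.16 ± 0.15 in wild type cells (adjusted p = 0.399), and the difference of the effects passed (-0.79, adjusted p = 0.0148). Ehmt1 fell in both, with differences of -2.53 ± 0.11 and -0.87 ± 0.11, and so did Atf7ip, the Setdb1 partner, with -2.20 ± 0.15 and -0.996 ± 0.15. Smarcad1, a remodeller that binds Trim28, was below background on both staggerer doxorubicin arrays, with a fitted difference of -2.72, and fell by 1.37 ± 0.18 in wild type cells. Cbx1, a heterochromatin protein, rose by 1.63 ± 0.17 and 2.47 ± 0.17. Dnmt1, the maintenance DNA methyltransferase, fell in both, with differences of -1.003 ± 0.22 and -1.96 ± 0.22, and Uhrf1, which brings Dnmt1 to DNA, differed by -0.16 ± 0.17 in staggerer cells and fell by 1.97 ± 0.17 in wild type cells, and the difference of the effects passed for both (adjusted p = 0.0313 and 0.000644).

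**Figure D5:**
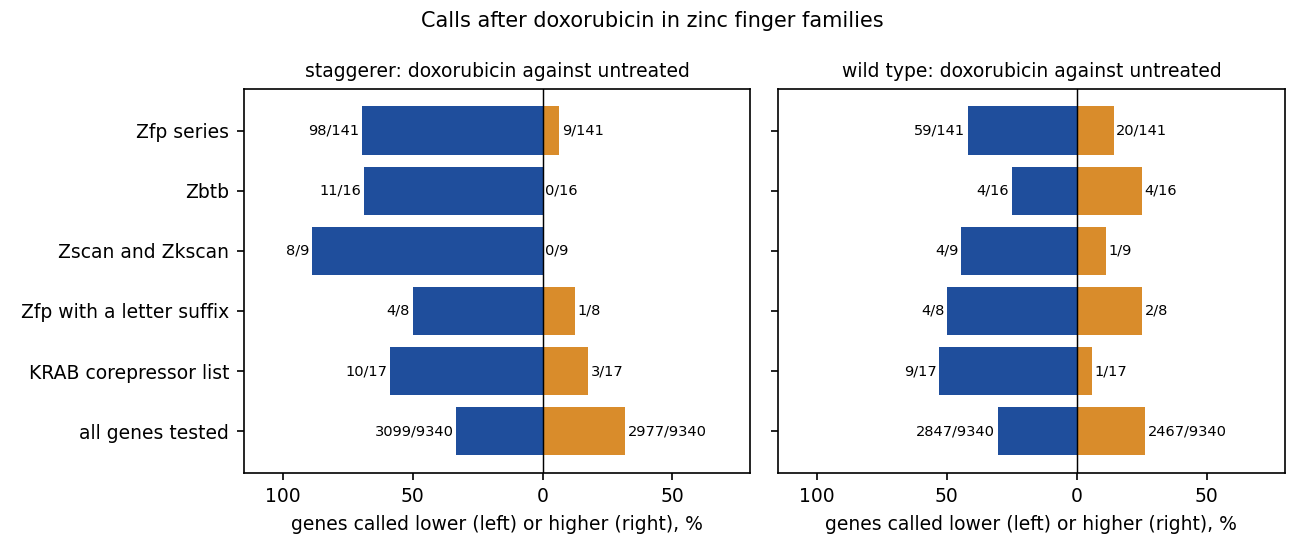
Share of genes called lower (blue, left) and higher (orange, right) after doxorubicin in staggerer and wild type cells (%, with counts of genes tested) for the Zfp series, other C2H2 families, the KRAB corepressor list and all genes. The Zfp series had 98 of 141 genes lower in staggerer cells and 59 of 141 in wild type cells.

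Members were also set out by position. In the RefSeq gene order 67 members lay next to another gene of the series, and 51 of these fell in staggerer cells (76.1%, median -1.49), against 47 of the 74 members with no such neighbour (63.5%, median -0.86) and 33.2% of all genes. The neighbouring members had a lower median untreated level (7.36 against 7.74). Among members above background on all arrays, 14 of 18 with and 20 of 34 without such a neighbour fell, against 31.1% of other such genes. In wild type cells 24 of 67 (35.8%) and 35 of 74 (47.3%) fell, against 30.5% of all genes, so the share of the neighbouring members lay near that of all genes. Neighbouring members are often related copies, and probes that read more than 1 copy were not searched for. Of the 29 members with another passing probe, 34 probes in all, 6 probes had the opposite sign in staggerer and 5 in wild type cells.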

How the data were processed

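The deposited table of non-normalised values holds linear intensity values of 25697 probes and 1124 control rows, per the file headers; no source used here names the scanner software. A second table deposited by the authors holds log2 values, which equal quantile normalization of the log2 intensities without background correction (largest difference 5.09e-09), and served as an alternative.

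The tools were limma 3.58.1 and R 4.3.3. Since no type is given for the control rows, they served as negative controls once the 10 brightest were dropped. A normal-exponential background model (offset 16) was fitted on the remaining 1114, and the corrected values were quantile normalised and put on the log2 scale. A probe was above background where the share of controls at or above its signal was under 0.01, and probes so on at least 2 arrays were kept. Each gene was given by its brightest probe, which left 9340 genes, among them 715 probes with no gene name. Depth has no counterpart on arrays, and the number of arrays limits the precision.

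The model had a mean for each of the 4 groups, over 8 arrays (lmFit and eBayes, with 4 residual and 3.44 prior degrees of freedom) and 5 contrasts were tested two-sided, with Benjamini-Hochberg adjustment over all genes and a threshold of 0.05. The script was tested on simulated data. For a gene below background on both arrays of a group, that group was put at the higher of its own level and the lowest level above background on each array, and the fold is given as "at least"; the fitted difference is then no bound. Differences carry the standard error of the fit with 2 arrays a group.

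All 141 members matched a RefSeq gene (GRCm38.p6). The members and lists were chosen with earlier results of these data known. The text names, per comparison, the 6 members with the largest rise and fall among those that passed, up to 8 with opposite effects in the 2 genotypes, a list of members with described roles, and from the corepressor list up to 6 genes and Trim28 and Setdb1. Exceptions are stated. The alternatives were no background correction, median centring or no normalization, the authors' table, no detection filter, only genes detected on each of the 8 arrays, averaged probes per gene, only the arrays compared, the replicate block and leaving out each array. Same-numbered arrays did not deviate together (correlations -0.03 to 0.03), so numbers were not taken as pairs. Protein features of the members were planned and not analysed here.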

Additional observations from a re-analysis of the deposited data

Results flagged for a closer look

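The difference between the doxorubicin effects of staggerer and wild type cells (staggerer minus wild type, limma's interaction term) passed the test for 77 members with a negative and 4 with a positive value. The positive ones were Zfp566 (1.54), Zfp367 (0.70), Zfp326 (0.67) and Zfp277 (0.62). The largest negative ones were Zfp292 (-2.53), Zfp97 (-2.47), Zfp688 (-2.37), Zfp87 (-2.31), Zfp334 (-2.26) and Zfp64 (-2.25).

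Among members whose effect was called in opposite directions, the difference was -1.97 for Zfp598, -1.90 for Zfp160, -1.89 for Zfp398, -1.73 for Zfp251, -1.49 for Zfp330 and -1.32 for Zfp410. Zfp292, Zfp97, Zfp688, Zfp598 and Zfp398 were below background on both staggerer doxorubicin arrays, so their fitted values are no bound.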

How the results depend on the processing

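The median difference of all members after doxorubicin stayed negative, and their share lower above that of all genes, in both genotypes under each alternative run; the exception is the like level range in wild type cells with only genes above background on all 8 arrays, where 3 of 18 members were lower, against 573 of 2006 other genes, with a median of 0.22. In staggerer cells 98 members were lower as reported, 98 without background correction and in the authors' deposited table, 83 with median centring (24.9% of all genes), 123 without normalization between arrays (51.6%) and 93 with only the arrays compared. Median centring moved the median of all genes in staggerer cells to 0.46 and no normalization to -0.56, and the members' median was then -0.66 and -1.68; without background correction it was -0.53. With only genes above background on all 8 arrays tested, fewer members remained in the test: 36 were lower and 5 higher in staggerer cells, 23 lower in wild type cells, 38 lower in staggerer against wild type doxorubicin cells and 33 more negative in the interaction. In the like level range 7 members and 335 other genes were then lower in staggerer cells, 3 and 573 in wild type cells, and 9 and 4 genes of the other C2H2 families were lower in staggerer and wild type cells. Without normalization 1860 of 2992 other genes of like level were lower in staggerer cells (median -0.85), and 68 of 71 members of like level (median -1.96).

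Counts of members higher were small and moved more. In staggerer cells 17 rose with median centring (49.9% of all genes) and 2 without normalization (10.3%). In staggerer against wild type doxorubicin cells 23 were higher with median centring (45.0% of all genes), 0 without normalization (14.6%) and 6 with only the arrays compared (29.9%). In the interaction 7 were more positive without background correction (28.6% of all genes) or in the authors' table (28.5%) and 13 with median centring (39.5%). There 2 were more positive without normalization (16.8%), without the detection filter (22.7%) or with the mean of a gene's probes (28.1%). Between untreated genotypes 1 member was higher without background correction, in the authors' table, with the mean of probes and with only the arrays compared. Median centring gave 2 higher. Lower were 3 members without background correction, in the authors' table and with only the arrays compared, and 0 without the detection filter. Without normalization 30 of 141 members were lower, against 24.3% of all genes. The medians were then -0.39 for the members and -0.34 for all genes.

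Leaving out 1 array at a time gave 89 to 99 members lower and 9 to 10 higher in staggerer cells, 44 to 69 and 16 to 21 in wild type cells, 78 to 90 and 6 to 11 in staggerer against wild type doxorubicin cells, 0 to 4 and 0 to 2 between untreated genotypes, and 65 to 85 more negative and 1 to 9 more positive in the interaction. In the interaction 9 were more positive without the second staggerer doxorubicin array, 2 without the first wild type doxorubicin array and 1 without the first wild type untreated or the second staggerer untreated array; the 6 higher without the first wild type doxorubicin array, and Zfp532 was the call between untreated genotypes that was lost without either wild type untreated, either wild type doxorubicin or either staggerer untreated array (without the first of these, 1 other member was called), while 4 were lower without either staggerer doxorubicin array. The like level members gave 49 to 54 and 26 to 40 lower in staggerer and wild type cells, their comparison genes 780 to 983 and 653 to 1054, the other C2H2 families 22 to 27 and 8 to 13, and the corepressor list 9 to 10 and 8 to 9.

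With the replicate number as a block, 98 members were lower and 9 higher in staggerer cells and 58 lower and 21 higher in wild type cells, and 76 were more negative in the interaction; the numbers did not pair the arrays.

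Of 922 values of named members under the alternatives, 843 kept direction and call, 40 lost the call, 20 gained one and 19 changed sign. Without normalization Zfp653 (-0.25), Zfp91 (-0.22) and Zfp513 (-0.42) turned in staggerer against wild type doxorubicin cells, Zfp367 (-0.00161) and Zfp277 (-0.0666) in the interaction, Zfp326 (-0.60), Zfp592 (-0.79) and Zfp609 (-0.0281) in staggerer cells, and Zfp451 (-0.10) and Zfp592 (-0.0700) in wild type cells. Median centring turned Zfp398 (0.0863), Zfp106 (0.11), Zfp687 (0.68), Zfp91 (0.0625) and Zfp131 (0.43) in staggerer cells and Zfp687 (0.0306) in wild type cells. The mean of probes turned Zfp326 (-0.35) in the interaction and Zfp326 (-0.36) and Zfp346 (0.20) in staggerer cells. The cause was not tested. The calls lost include that of Zfp532 between untreated genotypes without the detection filter and with the mean of probes, the rises of Zfp688, Zfp160, Zfp330 and Zfp410 in wild type cells without normalization, and the rises of Zfp365, Zfp219, Zfp566 and Zfp654 in staggerer cells without normalization. Signal over background limits the low members: 71 gave no signal above it on the staggerer doxorubicin arrays.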

Other observations

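By chromosome, 23 of 33 members on chromosome 7, 12 of 15 on chromosome 17 and 8 of 8 on chromosome 18 were called lower in staggerer cells after doxorubicin, and 3 of 10 on chromosome 13, against 98 of 141 in all and 33.2% of all genes tested. Other chromosomes held members too and are not listed, and the share of all genes on each chromosome was not counted. These counts are a description, with no test.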
